A study of Mus musculus with 8 samples.

Results

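The genes that build the ribosome were measured in macrophages of 3 activation states, as 37 genes whose proteins act in the nucleolus, where ribosomal RNA is made and assembled. The genes were chosen by name, and each was represented by 1 probe set, the one of its probe sets with the highest mean log2 intensity over the 8 arrays. All 37 were on the array, of 18193 genes that could be named on it. Bone marrow cells of wild-type C57BL/6J mice had been grown into bone marrow derived macrophages (BMDM) with L929 cell supernatant, a source of macrophage colony stimulating factor. On day 7 they were replated without this supernatant, so every condition lacked it. For 24 hours the cells then received media alone (M0, 3 arrays), 100 ng/ml LPS together with 20 ng/ml IFN-γ (M1, classical activation, 3 arrays), or 20 ng/ml IL-4 (M2, alternative activation, 2 arrays). The age of the mice was not given in the sources used here. Values are intensities on a linear scale, called units, with the SD over the arrays of a condition, and differences are on the log2 scale. They are RNA levels, also where a protein is named, and the arrays measured no protein. Whether same-numbered arrays of different conditions came from the same mouse was not known, and they were not treated as pairs in the main fit. The labels call the arrays biological replicates, while the methods can also be read as in vitro replicates of the same mice. Every n here is a number of arrays, and the p-values may therefore measure only technical spread.

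Ribosomes are built in the nucleolus from a long precursor RNA that RNA polymerase I transcribes. Small nucleolar ribonucleoproteins (snoRNPs) modify this RNA, those of the box C/D class by methylation and those of the box H/ACA class by pseudouridylation. The small subunit processome cuts and folds the part that becomes the small subunit, while other assembly factors, helicases and GTPases mature the large subunit. The transcription factor Myc is a known activator of these genes, by way of E-boxes with the letters CACGTG, and ribosome production is known to rise when cells grow. In macrophages Myc is known as an IL-4 induced gene.

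The arrays were alike in their overall distribution, with medians of 38.9 to 40.4 units, and all 37 genes lay above the array median on each of the 8 arrays. All 9 measured macrophage markers of 10 listed were above the array median in every condition. That median is a low bar, and it cannot by itself show identity. Of 6 B cell markers 3 or 4 exceeded it, by condition, and of 8 neutrophil markers 3 did. The summed level of the 9 macrophage markers was 80863 to 83395 units in M0, 78216 to 79759 in M1 and 55703 to 59348 in M2. In M2 5 of the 9 fell, Fcgr1 (log2 -3.28) and Cd14 (-1.66) the most. In M1 Mertk (-0.85) and Cd68 (-0.72) fell and Cd14 (0.89) rose. The 6 lists of markers of other cells (neutrophils, progenitors, T and NK cells, B cells, stromal cells and erythroid cells) had sums between 141 and 402 units on any array. Of these lists, 3 had no gene called against M0, and the others had Camp, Cd79b, Dcn and Lum called, all at means under 100 units. The stromal sum moved with M1, at 255 to 402 units there against 191 to 229.8 in M0, and its part in the results below was not tested. In bulk samples such as these, fewer cells of a type and less RNA per cell cannot be told apart, and the arrays had been scaled to 1 common distribution.

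The ribosome biogenesis genes rose as a group with IL-4 and changed little with LPS and IFN-γ, by the medians. The median of the 37 log2 differences was 0.62 in M2 against M0, and 0.16 in M1 against M0. Over all 18193 named genes these medians were 0.01 and 0.02. In limma's fit of all 8 arrays, 31 of the 37 genes (83.8%) were higher in M2 than in M0 at an adjusted p under 0.05, and 0 were lower, also at an unadjusted p under 0.05. The background for that count was 8.03% of all named genes higher and 6.43% lower, or 12.9% higher among the 9856 named genes with a mean above 64 units. The 6 that did not pass were Polr1c, Noc4l, Rrp15, Rrp1b, Ebna1bp2 and Npm1. Both M2 arrays lay above all 3 M0 arrays for 35 of the 37 genes (94.6%), against 24.2% of named genes. The changes were moderate in size, and 3 genes, Nop58, Dkc1 and Rrp12, rose at least 2-fold, where 1.91% of named genes did. Without M2 array 1 the count of genes that passed was 19. With the methods' t-test it was 33 before and 0 after Benjamini-Hochberg adjustment, and no background share was computed for that test.

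**Figure D1:**
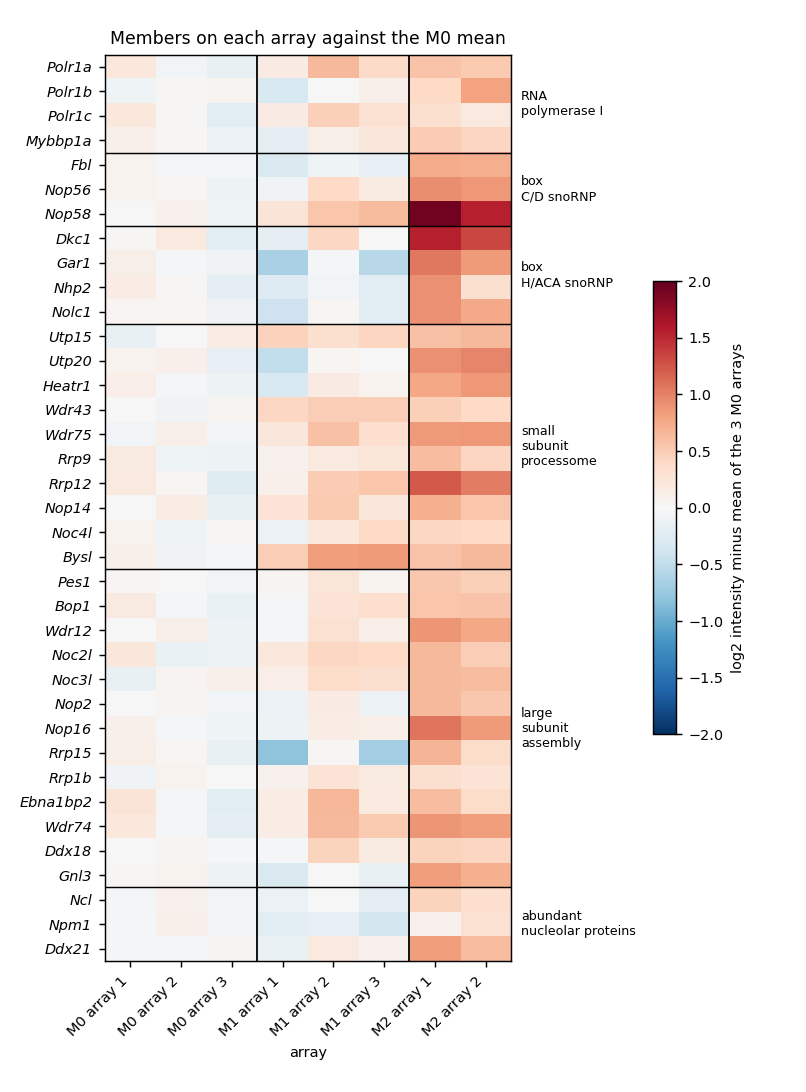
Each row is 1 of the 37 genes, grouped by role, each column is 1 array, and the colour is the log2 intensity minus the mean of the 3 M0 arrays. The M2 columns are above 0 for nearly every gene, while the M1 columns hold values on both sides of 0.

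In M1, 6 of the 37 genes (16.2%) were higher than in M0 and 0 were lower, by limma's adjusted p under 0.05. That share was close to the background, which was 13.7% of all named genes higher and 22.6% of those with a mean above 64 units, so the 6 rises are not a result about this group. No gene changed 2-fold, where 2.8% of named genes rose at least 2-fold. The count of 0 lower stands beside 11.5% of named genes lower. At an unadjusted p under 0.05 limma counted 3 lower genes, Gar1, Rrp15 and Npm1, and the methods' t-test counted 1. These counts have no background share at the same threshold beside them. All 3 M1 arrays were above the M0 arrays for 9 genes (24.3%, background 21.8%) and below them for 2 genes, Fbl and Npm1 (5.41%, background 18.5%). The 95% intervals of all 37 differences lay between -0.90 and 0.98, so a 2-fold change in either direction was outside the interval of each gene. The count of 6 rested on single arrays, since it was 3 without M0 array 3, without M1 array 2 or without M1 array 3, and without M1 array 2 Gar1 and Rrp15 were called lower.

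The M1 arrays differed among themselves more than the other arrays did for these genes. Taken per array, the 37 genes had a median intensity of 294, 275 and 277 units in M0, of 243, 300.2 and 266 in M1, and of 457 and 465 in M2. M1 array 1 was the lowest of the 3 M1 arrays for 33 of the 37 genes and M1 array 2 the highest for 28. Among the M0 arrays, array 3 was the lowest for 27 genes. The 37 genes thus moved together from array to array within a condition, and are not independent measurements. The M2 medians were above those of all 6 other arrays.

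Myc fell in M1 and rose in M2. The M0 arrays read 179, 231 and 245 units, the M1 arrays 63.9, 86.8 and 83.6 and the M2 arrays 772 and 648. The 3 conditions did not overlap, with M1 lowest and M2 highest. The log2 difference was -1.48 (SE 0.15, limma adjusted p = 1.7e-05) in M1 and 1.71 (SE 0.17, adjusted p = 2.7e-05) in M2, and M2 exceeded M1 by 3.19 (SE 0.17, adjusted p = 4.9e-08). The study had singled Myc out on these arrays, so its direction on them is not independent evidence. The paper also measured Myc by real-time PCR on independent datasets, where it was increased in M2 and decreased in M1. Its relatives Mycn and Mycl did not pass the test in either condition, with log2 differences of 0.09 and 0.30 in M1 and -0.0018 and 0.04 in M2. Set side by side at limma's adjusted p, M2 had more Myc and 31 of 37 ribosome biogenesis genes higher. M1 had 2.79-fold less Myc and none of the 37 lower, by the 1 probe set used per gene. Of 41 other probe sets of these genes, 4 were called lower and 5 higher in M1. At an unadjusted p under 0.05 limma counted 3 of the 37 lower and 12 higher there. No background share was computed at that threshold, so these 2 counts are not a result about the group. Both comparisons share the M0 arrays, and whether Myc's level set that of the other genes was not tested.

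**Figure D2:**
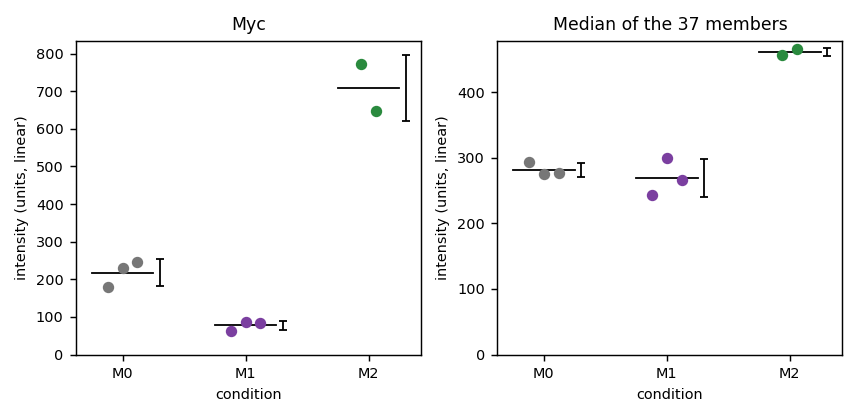
Intensity in units on a linear axis of Myc (left) and the median of the 37 genes (right); each point is 1 array, the line is the mean and the bar to its right the SD. Myc is lowest in M1 and highest in M2, whereas the median of the 37 genes is raised in M2 and overlaps between M0 and M1.

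The E-box CACGTG was looked for in the RefSeq promoter window of each gene (GRCm38.p6, 250 bases before to 50 after the start), on both strands, which are the same for this palindrome. Of the 37 genes 33 had a window, and 5 of these (15.2%) held the box, against 8.09% of 27025 genes in the table and 10.2% of the 14452 named genes of the array. The 5 were Utp20, Nop2, Pes1, Mybbp1a and Wdr43. Shown here are the boxes of the 3 genes that were also higher in M2 than in M1, with the box in capitals, 5′ to 3′ on the strand of the gene. In Utp20, on the minus strand at chr10:88826765-88826789, it began at base 38, counted from 1 at the start. In Nop2, on the plus strand at chr6:125131811-125131840, it began 60 bases before the start, and in Pes1, on the plus strand at chr11:3963965-3963994, at base 3.
Utp20: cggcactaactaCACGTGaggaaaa
Nop2: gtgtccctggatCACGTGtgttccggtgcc
Pes1: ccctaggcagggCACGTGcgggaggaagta
The median log2 difference in M2 against M0 was 0.51 for the 5 genes with the box and 0.62 for the 28 without it, and in M1 it was 0.06 and 0.17. The genes with the largest rises in M2, Nop58 and Dkc1, had windows without the box. A match is a description of the letters in this window only.

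Of the 4 genes listed for RNA polymerase I, 3 passed in M2 and 0 in M1, by the 1 probe set used per gene. The background was 8.03% of named genes higher in M2 and 13.7% in M1. Of 17 other factors of this polymerase, given below, 5 (29.4%) rose in M2. Polr1a, the largest subunit of the enzyme, was at 210.0, 176 and 164 units in M0, 205, 284 and 237 in M1 and 270.2 and 262 in M2. M2 was above every M0 array and within the range of M1, with log2 differences of 0.40 in M1 (SE 0.13, adjusted p = 0.055) and 0.55 in M2 (SE 0.15, adjusted p = 0.032). Another Polr1a probe set was called higher in M1, at 0.39 (limma adjusted p = 0.030). Polr1b, the second largest subunit, was at 117 ± 6.06 units in M0, 112 ± 15.7 in M1 and 178 ± 35.0 in M2, and rose by 0.60 in M2. Mybbp1a, a nucleolar protein that binds Myb and is not a subunit of the enzyme, rose by 0.47 in M2, from 1124 ± 85.0 to 1556 ± 62.7 units. Polr1c, which RNA polymerase III also uses, was the member of the enzyme that did not pass, at 461 ± 69.1 units in M0, 574 ± 61.9 in M1 and 546 ± 32.5 in M2.

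The genes of the box C/D snoRNP proteins rose in M2, and Nop58 had the largest log2 difference of the 37. All 3 of them passed there, with a median log2 difference of 0.89, and 1 passed in M1. The shares over all named genes were 8.03% in M2 and 13.7% in M1. Nop58, a scaffold protein of the particle, was at 85.3, 89.5 and 79.5 units on the M0 arrays, 101, 124 and 131 on the M1 arrays and 323 and 249 on the M2 arrays. No condition overlapped another, and the order was M0, M1, M2. Nop58 rose 3.35-fold in M2 (log2 1.74, SE 0.14, adjusted p = 6.5e-06) and 1.39-fold in M1 (log2 0.48, SE 0.13, adjusted p = 0.019). Its partner Nop56 was at 455, 445 and 402 units in M0, 414, 572 and 489.8 in M1 and 821 and 790.1 in M2, a log2 difference of 0.89 in M2 (SE 0.14) and of 0.17 in M1, which did not pass. Fibrillarin (Fbl), the methyltransferase itself, was at 1289.8, 1209 and 1196 units in M0, 1009.5, 1166 and 1100.0 in M1 and 2064 and 2046 in M2. The 2 M2 arrays were high and close together, and all 3 M1 arrays lay just below M0, by a log2 difference of -0.18 that did not pass (SE 0.10, adjusted p = 0.27).

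The 4 genes listed for box H/ACA rose in M2 and had the highest median difference between M2 and M1 of the 6 roles. They were Dkc1, Gar1, Nhp2 and Nolc1. All 4 passed in M2 and none in M1, where 3 of the 4 differences were below 0 and the median was -0.19. Nop10, also a core H/ACA protein, was not among them, so the result does not cover the whole particle. Its mean in M2, given further below, was close to that in M0. Dyskerin (Dkc1), the pseudouridine synthase that also belongs to telomerase, was at 139, 157 and 118 units in M0, 119, 182 and 138 in M1 and 404 and 345 in M2. M0 and M1 overlapped and both M2 arrays were far above them, a rise of 2.73-fold (log2 1.45, SE 0.18, adjusted p = 0.00016). Gar1, a core protein of the particle, was at 294, 262 and 256 units in M0, 173, 264 and 184 in M1 and 563 and 488 in M2. M1 arrays 1 and 3 were below every M0 array, M1 array 2 was not, and the log2 differences were -0.41 in M1 (SE 0.15, adjusted p = 0.078) and 0.96 in M2 (SE 0.17, adjusted p = 0.0025). Nolc1, a chaperone of snoRNPs, went from 293 ± 12.1 units in M0 to 525 ± 40.5 in M2 (log2 0.84). Nhp2, another core protein, had M2 arrays far apart at 1957 and 1306 units against 1157, 1063 and 918 in M0, and its rise of 0.62 was 0.33 and no longer passed without M2 array 1 (adjusted p = 0.28).

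**Figure D3:**
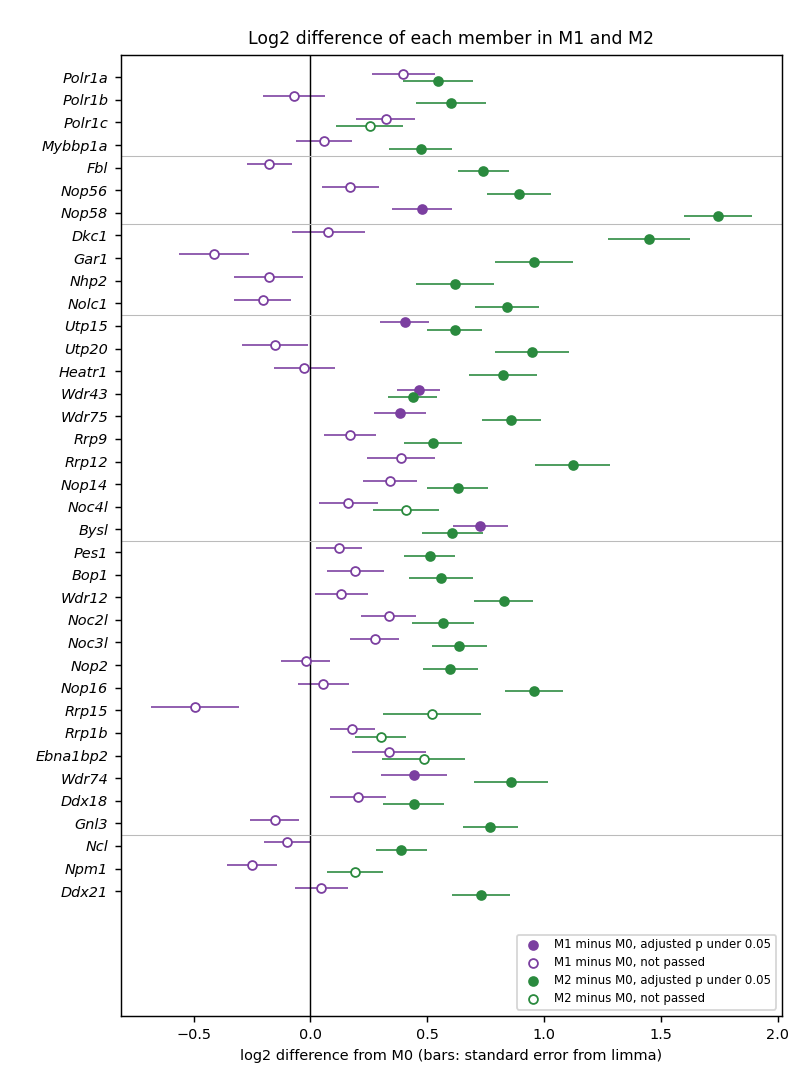
Log2 difference from M0 of each of the 37 genes in M1 (purple) and M2 (green), with the standard error from limma as bars and filled points for an adjusted p under 0.05. All 37 points for M2 lie above 0, and 25 of the 37 for M1 do.

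Of the 10 genes of the small subunit processome, 9 passed in M2 (median log2 difference 0.62), beside 8.03% of all named genes. In M1 4 of the 10 passed (median 0.36), beside the background of 13.7% of all named genes and 22.6% of those with a mean above 64 units, and they are part of the count of 6 that fell to 3 without single arrays. Bysl (bystin), a factor of the precursor of the small subunit, was at 333, 295 and 302 units in M0, 435, 552 and 559 in M1 and 457 and 485 in M2. Both activated states were above M0 without overlap and overlapped each other, at log2 0.73 in M1 (SE 0.12, adjusted p = 0.00063) and 0.61 in M2 (SE 0.13, adjusted p = 0.009). Wdr43 gave the same order of levels, at 302, 286 and 309 units in M0, 397, 421 and 419 in M1 and 415 and 395 in M2, with differences of 0.46 in M1 (SE 0.09, adjusted p = 0.003) and 0.44 in M2 (SE 0.10, adjusted p = 0.015). A second Wdr43 probe set did not show the M1 rise, at a log2 difference of -0.03 in M1 (adjusted p = 0.88) and 0.41 in M2 (adjusted p = 0.025), and it was higher in M2 than in M1 by 0.44 (adjusted p = 0.011). Wdr43, Wdr75, Utp15 and Heatr1 belong to the subcomplex that binds the precursor first and also aids its transcription. Wdr75 and Utp15 rose by 0.38 and 0.40 in M1 and by 0.86 and 0.62 in M2, whereas Heatr1 rose by 0.82 in M2 and was at -0.03 in M1.

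Rrp12 and Utp20 had the largest log2 differences of the processome genes in M2. Rrp12, an export factor of the subunits, was at 77.1, 68.8 and 56.7 units in M0, 72.2, 94.9 and 98.2 in M1 and 156 and 136 in M2. M2 was above every other array, a rise of 2.18-fold (log2 1.12, SE 0.16, adjusted p = 0.00062). Utp20, a large scaffold protein, was at 267, 275 and 227 units in M0, 181, 262 and 257 in M1 and 482 and 504 in M2. M1 array 1 was the lowest of the 8 and both M2 arrays were high, with a difference of 0.95 in M2 (SE 0.16, adjusted p = 0.0019) and -0.15 in M1. Nop14 and Rrp9, the latter a protein of the U3 snoRNP, rose by 0.63 and 0.52 in M2. Noc4l, the partner of Nop14, averaged 361 ± 20.0 units in M0 against 479 ± 4.02 in M2, a difference of 0.41 that did not pass (adjusted p = 0.087).

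Of the 13 large subunit factors, 10 (76.9%) rose in M2, at a median of 0.57, and 1 (7.69%) in M1, at a median of 0.18. Of all named genes 8.03% were higher in M2 and 13.7% in M1. Among those with a mean above 64 units the shares were 12.9% and 22.6%, so the M1 count is below the background. Nop16 led them in M2, at 229, 211 and 201 units in M0, 198, 236 and 233 in M1 and 445 and 385 in M2. M0 and M1 overlapped and M2 lay apart (log2 0.96, SE 0.12, adjusted p = 0.00025, against 0.06 in M1). Wdr74, a factor that acts with a nuclear ATPase, was the 1 that passed in M1, at 509, 426 and 388 units in M0, 487, 690.3 and 629.9 in M1 and 809 and 779 in M2. M1 array 1 lay within the M0 range, the M1 difference of 0.44 was near the threshold (SE 0.14, adjusted p = 0.043), and that of M2 was 0.86 (SE 0.16, adjusted p = 0.0034).

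Pes1, Bop1 and Wdr12, the genes of the 3 proteins of the PeBoW complex that matures the large subunit RNA, all rose in M2. Their log2 differences were 0.51 for Pes1, 0.56 for Bop1 and 0.83 for Wdr12 in M2, and 0.12, 0.19 and 0.13 in M1. Noc2l and Noc3l, which travel with the precursor of the large subunit, rose by 0.57 and 0.64 in M2. Gnl3 (nucleostemin), a nucleolar GTPase of proliferating cells, was at 297 ± 18.3 units in M0, 267 ± 25.5 in M1 and 506 ± 30.0 in M2, a rise of 0.77 in M2 (SE 0.12, adjusted p = 0.00097). Nop2, an RNA methyltransferase, rose by 0.60, and Ddx18, a helicase, by 0.44 with an adjusted p of 0.049, next to the threshold. Rrp15, Rrp1b and Ebna1bp2 did not pass in M2, with differences of 0.52, 0.30 and 0.49. Rrp15 also had the lowest log2 difference of the 37 in M1. It was at 94.1, 167 and 101 units on the M1 arrays against 178, 169 and 148 in M0, with M1 array 2 alone within the M0 range (log2 -0.49, SE 0.19, adjusted p = 0.093).

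The genes of the 3 abundant nucleolar proteins had the lowest median of the 6 roles in M2, 0.39. There 2 of the 3 passed, beside 8.03% of all named genes. Nucleolin (Ncl), which binds the precursor RNA and the genes it comes from, was at 3089, 3392 and 3077 units in M0, 2950.0, 3160.3 and 2816 in M1 and 4334 and 4009.7 in M2. M2 was above all other arrays, by 0.39 against M0 (SE 0.11, adjusted p = 0.037). Nucleophosmin (Npm1), a chaperone of the granular part of the nucleolus, was at 3169, 3496 and 3143 units in M0, 2830.3, 2906 and 2520.5 in M1 and 3453 and 4021 in M2. M2 overlapped M0 and all 3 M1 arrays were below it, and neither difference passed (0.19 in M2, adjusted p = 0.38, and -0.25 in M1, adjusted p = 0.13). Ddx21, a helicase that aids both RNA polymerase I and processing, rose by 0.73 in M2 (SE 0.13, adjusted p = 0.0021), from 159 ± 5.86 to 264 ± 28.4 units, and was at 165 ± 18.7 units in M1.

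Against each other, M2 exceeded M1 in 21 of the 37 genes (56.8%) and was below it in 0, where 12.3% of named genes were higher and 11.5% lower, and 19.3% were higher among genes with a mean above 64 units. At 2-fold the count was 6 genes, Nop58, Dkc1, Gar1, Nolc1, Utp20 and Rrp15, against 4% of named genes. With the methods' t-test the count was 22 before and 1 after adjustment. The median difference was 0.48. Both M2 arrays were above the 3 M1 arrays for 31 genes (83.8%, background 23.3%). By role, all 3 box C/D, all 4 box H/ACA and all 3 abundant nucleolar genes passed, against 4 of 10 in the processome, 6 of 13 in large subunit assembly and 1 of 4 for RNA polymerase I. The 4 listed H/ACA genes had the highest median, 1.21, with 1.37 for Dkc1 (SE 0.18, adjusted p = 0.00012) and 1.37 for Gar1 (SE 0.17, adjusted p = 7.8e-05). Bysl, Wdr43 and Polr1c were the genes whose M1 mean was at least that of M2 on the log2 scale, with differences of -0.12, -0.03 and -0.07 and 95% intervals from -0.41 to 0.16, -0.25 to 0.20 and -0.38 to 0.24. These intervals leave room for differences of either sign.

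Other probe sets of the same genes were never called lower in M2, and were called in both directions in M1. For 26 of the 37 genes there were 41 further probe sets. In M2, 21 of the 41 were called higher and 0 lower, and in M1 5 were higher and 4 lower. No share over all probe sets was computed beside these counts. The 5 higher in M1 belonged to Polr1a (0.39), Utp15 (0.35), Bysl (0.55), Rrp1b (0.35) and Ebna1bp2 (0.40). Of these genes Polr1a, Rrp1b and Ebna1bp2 did not pass in M1 by the probe set used. The 4 lower in M1 belonged to Ncl, Ddx21, Noc2l and Noc4l. A second Ncl probe set was at a log2 difference of -0.86 in M1, where the one used was at -0.10, and a second Ddx21 probe set was at -0.38, where the one used was at 0.05. Those of Noc2l and Noc4l were at -0.36 and -0.51, with 0.34 and 0.16 for the ones used. Of the 6 genes that did not pass in M2, 3 had another probe set that was called higher there, Npm1 at 0.42 (adjusted p = 0.049), Noc4l at 0.58 (adjusted p = 0.042) and Rrp1b at 0.53 (adjusted p = 0.012). None of the 41 was called against a call of the probe set used.

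Other small and large subunit factors also rose in M2, from lists of further factors with no gene in common with the 37. Over all named genes 8.03% were higher in M2 and 13.7% in M1. Among those with a mean above 64 units these shares were 12.9% and 22.6%. The M1 share of the large subunit factors below was near this background. Of 49 other small subunit factors, 26 (53.1%) rose in M2 and 0 fell, and 15 (30.6%) rose and 1 fell in M1, with medians of 0.43 and 0.23. Rcl1, a cyclase-like factor of the small subunit, had the largest rise in M1, from 116 ± 12.3 units in M0 to 944 ± 181 in M1 and 235 ± 34.6 in M2 (log2 3.02 and 1.02). Utp11 of the processome rose by 1.04 in M1 and was at 0.29 in M2, where it did not pass. Tsr1, which acts on the late small subunit, rose by 0.94 in M2, and Wdr36 of the processome fell by 0.45 in M1. Of 48 other large subunit factors, 21 (43.8%) rose in M2 and 9 (18.8%) in M1, and 0 fell in either by limma's adjusted p (2 in M2 and 0 in M1 unadjusted), with medians of 0.38 and 0.13. Rrp8, an RNA methyltransferase, and Rrs1, of the 5S particle, rose by 1.27 and 1.19 in M2, while Nvl and Eif6 rose by 0.66 and 0.65 in M1.

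Of 17 other RNA polymerase I factors, 5 (29.4%) rose and 1 (5.88%) fell in each of the comparisons with M0. The medians were 0.17 in M2 and 0.10 in M1. Ubtf, the factor that opens the ribosomal genes, went opposite ways, at 401 ± 26.2 units in M0, 305 ± 16.2 in M1 (log2 -0.39, adjusted p = 0.011) and 541 ± 0.0276 in M2 (log2 0.43, adjusted p = 0.021). Taf1b, of the selectivity factor, rose by 0.94 in M1, Polr1e by 0.64 in M1, Top1 by 0.58 and Polr2h by 0.57 in M2. Znrd1, a small subunit of the polymerase, rose by 0.33 in M1 and fell by 0.46 in M2. Of 12 other snoRNP factors 4 (33.3%) rose in M2 and 0 fell, while 1 (8.33%) rose and 3 (25%) fell in M1. Nop10, the fourth core H/ACA protein, fell in M1 from 1677 ± 166 to 952 ± 129.7 units (log2 -0.82) and was at 1764 ± 99.1 in M2. Pih1d1, a snoRNP assembly factor, fell by 0.37 in M1. Nufip1 rose by 0.84 in M1 and 0.81 in M2, and Shq1, the chaperone of dyskerin, by 0.73 in M2. Of 17 genes of the exosome and RNA decay, 2 (11.8%) rose in M1 and 3 (17.6%) in M2. Among them were Exosc4 by 0.85 and Exosc1 by 0.50 in M1 and Dis3 by 0.66 in M2. Over all named genes 13.7% were higher and 11.5% lower in M1, and 8.03% were higher in M2. Among those with a mean above 64 units the shares were 22.6%, 18.2% and 12.9%. The exosome counts were near these shares and are not a result about that list.

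The genes of the proteins of the ribosome itself were close to their M0 level in M2, by the median. Of 80 cytoplasmic ribosomal protein genes listed, 44 were measured. In M2, 3 rose (6.82%) and 0 fell, with a median of 0.09, and in M1 0 rose and 7 fell (15.9%), with a median of -0.13. M2 was above M1 for 10 of the 44 (22.7%), beside 12.3% of all named genes and 19.3% of those with a mean above 64 units. Rpsa fell from 7760.0 ± 895 units in M0 to 4853 ± 219 in M1 and was at 8538 ± 644 in M2. Rpl12 and Rpl14, which rose by 0.75 and 0.76 in M2, were at 117 ± 13.4 and 79.7 ± 8.25 units in M0. Beside the 6.82% that rose in M2 and the 15.9% that fell in M1 stand 8.03% and 11.5% of all named genes. Among named genes with a mean above 64 units these shares were 12.9% and 18.2%, so neither count exceeded that background. The differences of 38 of the 44 were below 0 in M1, and those of 35 were above 0 in M2. At an unadjusted p under 0.05, limma counted 12 lower and 0 higher in M1, 7 higher and 0 lower in M2, and 24 higher and 0 lower in M2 against M1. Without a background share at that threshold, these counts cannot be set against the array as a whole.

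**Figure D4:**
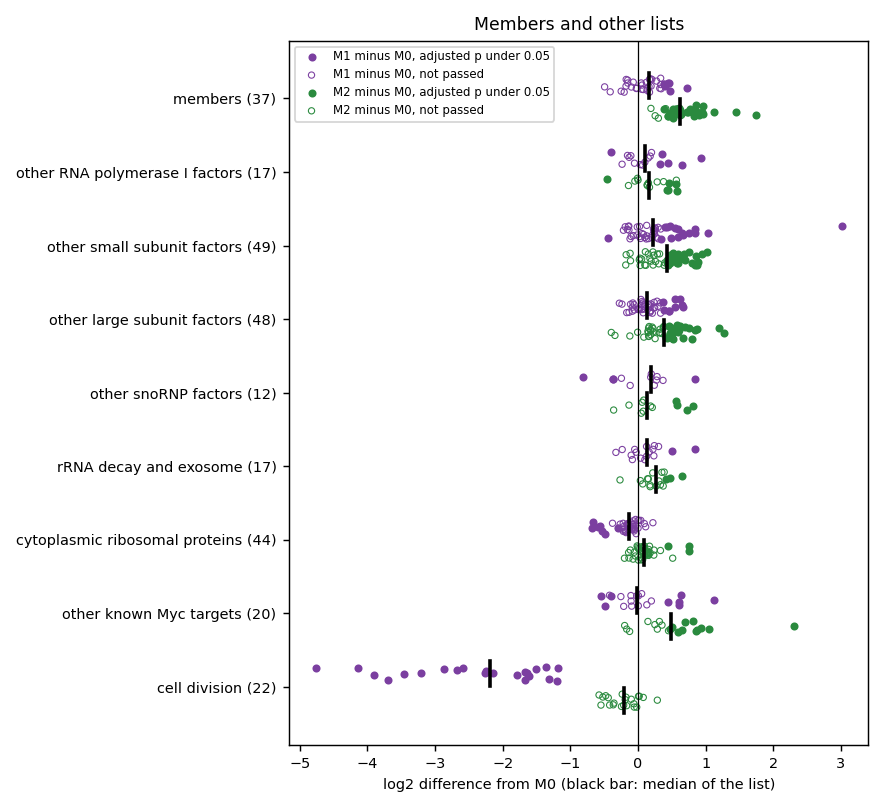
Log2 difference from M0 in M1 (purple) and M2 (green) for the 37 genes and for 8 other lists, with the number of genes measured in brackets; filled points passed an adjusted p of 0.05 and the black bar is the list's median. The medians in M2 are 0.62 for the 37 genes and 0.43 and 0.38 for the other small and large subunit factors, while the cell division list is lowered in M1.

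Of 20 other known Myc targets, 11 (55%) rose and 0 fell in M2, with a median of 0.49. In M1 5 (25%) rose and 3 (15%) fell, with a median of -0.01. Of named genes with a mean above 64 units, 12.9% rose in M2, and 22.6% rose and 18.2% fell in M1. The transferrin receptor Tfrc rose in M2 by 2.30 (from 742 ± 92.9 to 3633 ± 139.9 units), the mitochondrial enzyme Shmt2 by 1.06 and the chaperonin Hspd1 by 0.87. In M1 Hspd1 also rose, by 0.64, and so did the cyclin Ccnd2, by 1.12, while the nucleoside diphosphate kinases Nme1 and Nme2 fell by 0.54 and 0.48. Cell division genes were also measured, as another sign of growth. All 22 fell in M1 (median -2.19), with Ccnb2 going from 351 ± 76.0 to 20.5 ± 8.01 units and Ube2c from 735 ± 189.8 to 26.6 ± 3.89. In M2 none of the 22 passed in limma's fit (median -0.20), and at an unadjusted p under 0.05 3 were lower and 0 higher.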

How the data were processed

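The 8 Affymetrix Mouse 430 2.0 arrays were normalized by the authors with RMA, which corrects the background, equalises the distributions and summarises probe sets, and intensities were deposited on a linear scale. Equal distributions would hide a change shared by all genes. Here log2 of the deposited intensity of 45037 probe sets (64 of 45101 were controls) was fitted with limma 3.58.1 (R 4.3.3, a mean per condition, 5 residual and 6.95 prior degrees of freedom), with Benjamini-Hochberg adjustment over all probe sets, and a call at an adjusted p under 0.05. Background shares were computed for calls at an adjusted p only, and none for counts at an unadjusted p. The number of arrays limits the precision.

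The platform annotation gave 34945 probe sets 1 symbol, 932 several and 9160 none, and several or none named no gene. Array values are given for Myc and the genes with the 4 largest called changes per comparison, and, chosen after their values were seen, for some others; in each other list the 2 largest rises and falls called in M1 and in M2 are named. The genes and lists (331 entries, 279 measured) were chosen with earlier results of these data known. Summaries used Python 3.11.15. Alternatives were the methods' t-test, other normalizations, filters, probe choices and fits, a replicate block, and each array left out.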

Additional observations from a re-analysis of the deposited data

How the results depend on the processing

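The direction of the median difference held under every alternative run, at 0.05 to 0.22 in M1, 0.57 to 0.65 in M2, and 0.45 to 0.57 for M2 against M1. Counts depended on the test. With the methods' t-test after adjustment 2 genes were higher in M1, 0 in M2 and 1 in M2 against M1, with Myc's rise in M2 at an adjusted p of 0.084, and before adjustment 5, 33 and 22 were, with 1 lower in M1. With values below 64 units set to 64 the counts were 3 in M1 and 16 in M2, and at an adjusted p under 0.01 2 were higher in M1. At 2-fold they were 0, 3 and 6. With plain probe sets preferred 1 gene was lower in M1, Ddx21 at -0.38 in place of a positive value. Wdr75 turned to -0.14, which did not pass, from a probe set with a mean of only 19.2 units. Leaving out 1 array gave 3 to 7 genes higher and 0 to 2 lower in M1, and 19 to 32 higher in M2, with 19 without M2 array 1. For M2 against M1 the range was 15 to 22. Where a condition was left with 1 array, limma took its spread from the others. The causes were not tested beyond fewer arrays or a stricter threshold. Deviations of same-numbered arrays from their condition means had correlations of -0.17 to 0.05. With 2 or 3 arrays per condition such deviations are tied to each other, so they cannot show whether the numbers pair the arrays. A fit with the replicate block called 5 genes higher in M1, 25 in M2 and 19 in M2 against M1.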
